A study of Mus musculus with 24 samples.

Results

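Genes of lipid handling and of the lysosome in macrophages were described in the lungs of adult and aged mice given house-dust mite (HDM) with or without dexamethasone (Dex). The 10 genes Spp1, Gpnmb, Trem2, Cd68, Ctsk, Apoe, Marco, Fabp4, Pparg and Cidec were chosen by symbol among the 23891 genes of the table, and each had 1 row. All 10 averaged at least 1 CPM (a gene's share of all counts on genes in its library, brought to the same total in every library) and so were among the 17744 genes tested. RNA came from the left lung lobe of 24 C57BL/6 mice in 4 groups: 5 naïve adult mice of 20 wk given saline, 5 naïve aged mice of 80 wk given saline, 7 aged mice of 80 wk given 50 µg HDM intranasally per dose, and 7 such HDM mice also injected with Dex at 4 mg/kg. There was no adult HDM group, so the response to HDM was measured at 80 wk only. Whole lung was sequenced, so a gene's level counts macrophages together with all other cells, and fewer cells of a type and less RNA per cell cannot be told apart.

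Macrophages take up lipid, dying cells and surfactant and break them down in lysosomes. Alveolar macrophages, which clear surfactant, depend on GM-CSF and on the lipid-sensing nuclear receptor PPARγ, whereas macrophages recruited to injured or fibrotic tissue are known to carry high osteopontin, GPNMB and TREM2. TREM2 is a lipid receptor that signals through the adaptor TYROBP, and CD68, cathepsin K and GPNMB reside in the endosome and lysosome. None of these genes is expressed by macrophages alone: PPARγ, FABP4 and CIDEC are also prominent in adipocytes, FABP4 also in capillary endothelium, osteopontin in epithelium, and cathepsin K in fibroblasts and osteoclasts.

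Estimated depth ran from 10.1 to 33.1 M reads per sample, so that 3 reads were worth 0.0906 to 0.298 CPM. The 7SL RNA, a small noncoding RNA of the signal recognition particle, took 9.92% to 42.0% of the CPM. Its share was above 25% in 5 of 7 HDM samples, 4 of 7 HDM + Dex samples and 1 of 5 naïve adult samples, and in none of the 5 naïve aged samples. All 5 HDM samples above 25% were male and both below it were female by Xist and Y-linked genes, and all 5 naïve adult mice were female. The 12 general macrophage markers were all present, with summed levels of 1039 to 2686 CPM in naïve adult, 2691 to 3457 CPM in naïve aged, 1687 to 6593 CPM in HDM and 1373 to 5218 CPM in HDM + Dex lungs.

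Between genes, levels were compared per kilobase of exon. Apoe had the highest mean level in every group and Spp1 the next, with 241 ± 66.6 and 52.9 ± 13.4 CPM per kb in naïve aged mice (SD, n = 5), ranges that did not overlap. Trem2 had the lowest mean level in both naïve groups, at 0.492 ± 0.372 CPM per kb in the aged mice, below every naïve aged value of Pparg, the next gene. From Cd68 down to Pparg the ranges of neighbouring genes overlapped in naïve aged mice. In HDM and HDM + Dex lungs Cidec took the lowest place, at 0.717 ± 0.886 and 1.17 ± 1.04 CPM per kb (SD, n = 7), and the order from Apoe was Spp1, Ctsk, Cd68 and Gpnmb in both groups. After HDM the ranges of every pair of neighbours in that order overlapped.

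**Figure D1:**
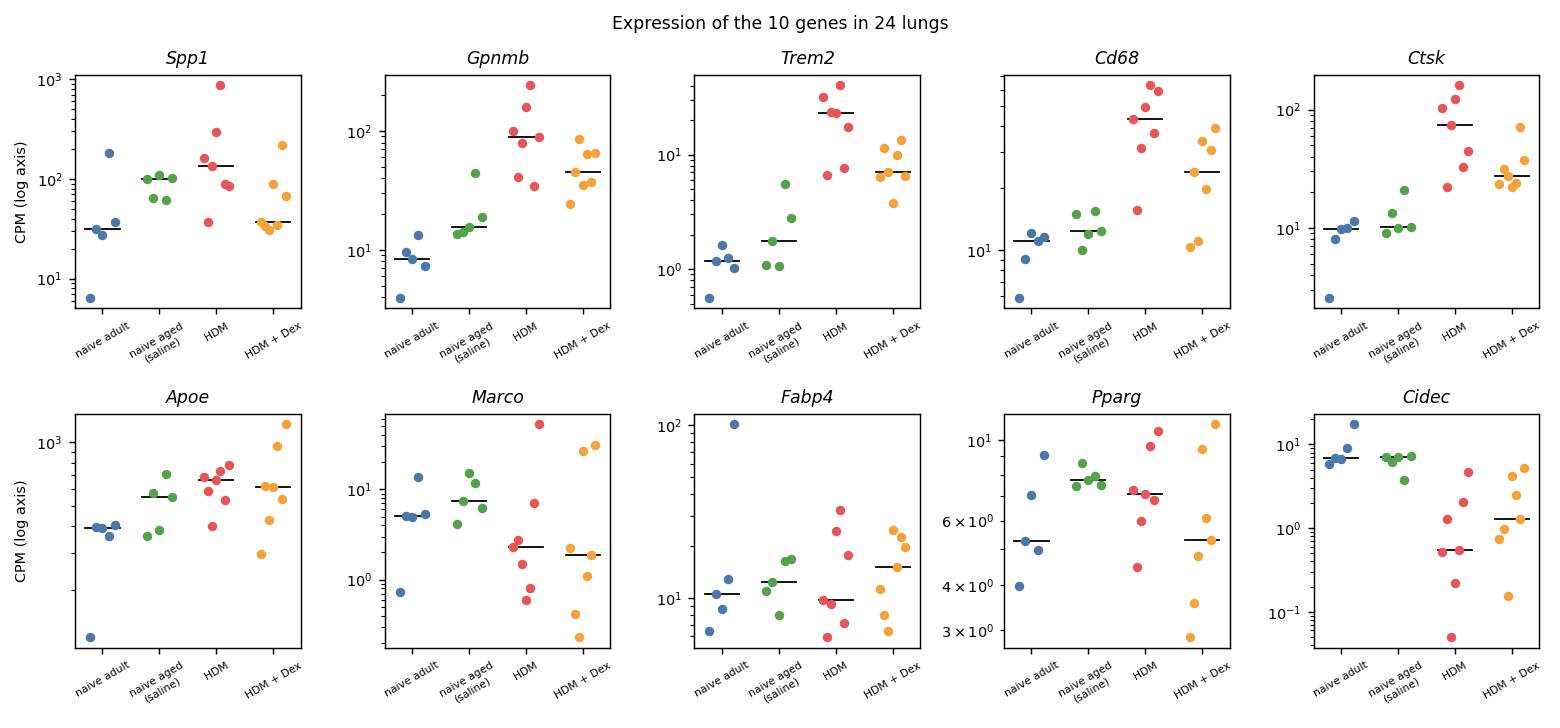
CPM of the 10 genes on log axes in every lung, with a bar at the median of each group (left to right: naïve adult, n = 5, naïve aged, n = 5, HDM, n = 7, and HDM with Dex, n = 7); the Cidec value listed at 0.0001 CPM is drawn at 0.05. All 7 HDM samples lay above all 5 naïve aged samples for Trem2, Cd68 and Ctsk.

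Promoters of 4 members are shown, because Trem2, Ctsk, Gpnmb and Cd68 were the ones that rose after HDM. Each is the 250 bases before a RefSeq transcript start on GRCm38.p6, 5′ to 3′ on the gene's strand, with the matched motifs in capitals.
Trem2, chr17:48346151-48346400, plus strand: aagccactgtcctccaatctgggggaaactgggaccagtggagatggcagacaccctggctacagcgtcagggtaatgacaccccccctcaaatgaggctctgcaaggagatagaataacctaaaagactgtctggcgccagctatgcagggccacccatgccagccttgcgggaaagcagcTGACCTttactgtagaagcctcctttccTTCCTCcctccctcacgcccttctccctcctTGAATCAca
Ctsk, chr3:95498960-95499209, plus strand: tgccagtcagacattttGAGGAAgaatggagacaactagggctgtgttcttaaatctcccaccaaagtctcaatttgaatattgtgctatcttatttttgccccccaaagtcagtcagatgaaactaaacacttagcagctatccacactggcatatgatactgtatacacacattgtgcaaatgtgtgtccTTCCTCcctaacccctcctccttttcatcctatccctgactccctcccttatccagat
Gpnmb, chr6:49036268-49036517, plus strand: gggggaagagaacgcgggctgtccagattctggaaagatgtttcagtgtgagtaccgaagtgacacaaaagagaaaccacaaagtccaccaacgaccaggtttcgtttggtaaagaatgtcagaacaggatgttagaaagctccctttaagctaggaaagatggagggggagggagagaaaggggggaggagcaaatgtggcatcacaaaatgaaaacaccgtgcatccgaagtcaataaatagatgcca
Cd68, chr11:69666171-69666420, minus strand: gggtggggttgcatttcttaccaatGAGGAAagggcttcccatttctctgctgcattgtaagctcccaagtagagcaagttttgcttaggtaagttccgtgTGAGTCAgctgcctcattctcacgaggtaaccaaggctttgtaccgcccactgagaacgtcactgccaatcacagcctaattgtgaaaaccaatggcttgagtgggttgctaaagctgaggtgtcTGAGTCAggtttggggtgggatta

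The search covered 7 motifs on both strands in 15 windows of 9 members, Fabp4 having no entry. The E-box CACGTG, its extension TCACGTG, the CLEAR element bound by TFEB (the E-box with GT before it and AC after it), and CATGTG (the core of the M-box bound by MITF) matched in none of the 15 windows, and they matched in 6.02%, 3.13%, 0.24% and 12.3% of the 32851 windows of all genes. TCACGTG and the CLEAR element each contain the E-box. The half-site AGGTCA of nuclear receptors, in 14.02% of all windows, matched in Trem2 and in 2 of the 3 Pparg windows. The PU box GAGGAA, the core recognised by the myeloid factor PU.1, was present in 23.3% of all windows. It matched in Trem2, Cd68 and Marco, at 2 places in Ctsk, and in some but not all windows of Spp1, Apoe and Pparg. These percentages count windows, not genes. The AP-1 site TGANTCA, in 6.75% of all windows, matched in Trem2, at 2 places in Cd68, and in Cidec though not in each of its windows. The PU box and the AP-1 site were added to the search after the members' values were known.

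To describe the response of aged lungs to HDM, the 7 HDM samples were compared with the 5 naïve aged samples. Trem2, Ctsk, Gpnmb and Cd68 rose and Cidec fell, while Spp1, Apoe, Marco, Fabp4 and Pparg did not pass the test. Thus 4 of the 10 genes were called higher and 1 lower at an adjusted p under 0.05, beside 4.04% of all genes tested called higher and 21.2% called lower, or 25.3% in all. The median log2 fold change was 0.55 over the 10 genes and −0.23 over all genes tested. When the samples were rescaled by the median of ratios, so that the median gene stood at −0.01, the same number of the 10 genes was called in each direction, and 10.9% of all genes were called higher and 11.6% lower.

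Trem2, the lipid receptor, was measured at 1.09, 1.75, 1.06, 5.48 and 2.77 CPM in the 5 naïve aged lungs and at 6.63 to 40.3 CPM, with a median of 22.9, in the 7 HDM lungs. Every HDM sample lay above every naïve aged sample, the closest being HDM replicate 2 and naïve aged replicate 4. The means were 21.4 ± 12.2 (SD, n = 7) and 2.43 ± 1.84 CPM (SD, n = 5), a ratio of 8.80. The log2 fold change was 2.62 ± 0.38 (SE, adjusted p = 0.000346), the 31st lowest p of all genes tested.

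Ctsk, encoding the collagen-degrading protease cathepsin K, stood at 9.003, 13.4, 10.1, 21.1 and 10.1 CPM in naïve aged lungs and at 22.1 to 161 CPM, median 73.8, after HDM. The groups again did not overlap, with HDM replicate 2 only just above naïve aged replicate 4. The ratio of means was 6.27 and the log2 fold change was 2.33 ± 0.39 (SE, adjusted p = 0.000564).

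Cd68, the lysosomal membrane glycoprotein widely used as a macrophage marker, stood at 15.04, 10.1, 11.99, 15.5 and 12.4 CPM in naïve aged lungs and at 15.7 to 63.3 CPM, median 43.5, after HDM. The lowest HDM value, that of replicate 2, was barely above the highest naïve aged value. On the log2 scale the fold change was 1.55 ± 0.32 (SE, adjusted p = 0.00184). Trem2, Ctsk and Cd68, 3 of the 10 genes, thus had every HDM sample above every naïve aged sample, beside 1.03% of all genes tested.

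Gpnmb, a lysosomal glycoprotein of macrophages under lipid load, stood at 13.6, 14.1, 15.4, 44.0 and 18.9 CPM in naïve aged lungs and at 34.7 to 243 CPM, median 89.8, after HDM. Naïve aged replicate 4 lay above HDM replicates 2 and 6, and all other naïve aged samples were below every HDM sample. Its log2 fold change was 2.14 ± 0.40 (SE, adjusted p = 0.00109). Among the samples with a 7SL share below 25%, it was 1.50 with an adjusted p of 0.0594.

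Spp1, encoding the secreted integrin ligand osteopontin, stood at 99.7, 64.9, 108, 61.5 and 101 CPM in naïve aged lungs and at 37.2 to 874 CPM, median 136, after HDM. The HDM group spread on either side of the naïve aged group, with 4 samples above it and replicate 2 below it. The means were 240 ± 291 (SD, n = 7) and 87.1 ± 22.2 CPM (SD, n = 5), and limma's log2 fold change of the log-scale means was 0.81 ± 0.55 (SE, adjusted p = 0.284), with a 95% interval from −0.34 to 1.95.

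Apoe, the apolipoprotein that carries cholesterol out of macrophages, stood at 361, 576, 385, 704 and 549 CPM in naïve aged lungs and at 401 to 776 CPM, median 660, after HDM. The ranges overlapped almost wholly. Apoe differed by a log2 fold change of 0.29 ± 0.27 (SE, adjusted p = 0.424).

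Cidec, a lipid droplet protein, stood at 7.10, 6.23, 7.06, 3.72 and 7.27 CPM in naïve aged lungs. After HDM it ranged up to 4.71 CPM with a median of 0.549, and in HDM replicate 3, the shallowest library, it was listed at the constant of 0.0001 CPM, where 3 reads would be 0.298 CPM. In HDM, 6 of 7 samples lay below every naïve aged sample, the exception being replicate 7. Cidec had a log2 fold change of −1.86 ± 0.40 (SE, adjusted p = 0.00263).

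Cidec was compared with the 7SL share and with adipocyte markers. Within the HDM group it was at most 1.27 CPM in the 5 samples with a 7SL share above 25% and 2.05 and 4.71 CPM in the other 2. These 5 samples were all male and the other 2 female, so 7SL share and sex cannot be told apart within this group. Within the HDM + Dex group Cidec was 0.154 to 1.29 CPM in the 4 samples above 25% and 2.51 to 5.25 CPM in the other 3. Of these 4 samples 3 were male and 1 female, and the other 3 were all female. The value of 0.154 CPM, in HDM + Dex replicate 3, lay below the 0.231 CPM that 3 reads were worth there. Naïve adult replicate 1, with the highest 7SL share of 42.0%, had 5.89 CPM of Cidec against 6.69 to 17.3 CPM in the other adult lungs. With the 7SL share as a covariate the log2 fold change of Cidec in HDM was −0.62 (adjusted p = 0.170), and among the samples below 25% it was −0.77 (adjusted p = 0.161). With sex as a term in the limma fit it was −1.75 (adjusted p = 0.000975). Of the 9 adipocyte markers tested, 7 fell after HDM, led by Car3 (−2.49) and Cfd (−1.92, adipsin) on the log2 scale, and the summed level of all 14 adipocyte genes listed was 77.2 to 149 CPM in naïve aged and 28.3 to 88.0 CPM in HDM lungs. Plin1, the perilipin of adipocyte lipid droplets, had a median of 3.81 CPM in naïve aged and of 0.398 CPM in HDM lungs. Within the treated groups the markers followed Cidec in some samples and not in others. HDM replicate 7 had the highest Cidec of its group, at 4.71 CPM, and also its highest Plin1 (3.53 CPM) and Car3 (6.49 CPM). In HDM + Dex replicate 4 Cidec was at 4.24 CPM, and Plin1 (2.24 CPM) and Car3 were the highest of that group. By contrast, HDM + Dex replicate 7 had the highest Cidec of its group, at 5.25 CPM. Its Plin1 was at 0.197 and Car3 at 0.590 CPM, and Adipoq was listed at 0.0001 CPM. HDM replicate 6, with Cidec at 2.05 CPM, had Plin1 at 0.228 and Car3 at 0.608 CPM. Both of these Plin1 values lay at the level of 3 reads, 0.197 CPM in HDM + Dex replicate 7 and 0.228 CPM in HDM replicate 6. The part of the adipocyte markers, of the 7SL share and of sex in the fall of Cidec was not tested further.

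Marco, a scavenger receptor of alveolar macrophages that binds particles and bacteria, stood at 4.17, 7.49, 15.2, 11.8 and 6.18 CPM in naïve aged lungs. In the 7 HDM lungs it ran from 0.592 to 52.6 CPM with a median of 2.31. Of these, 5 samples lay below every naïve aged sample and replicate 7 above all of them. The log2 fold change was −1.03 ± 0.82 (SE, adjusted p = 0.362), with a 95% interval from −2.73 to 0.67. The 5 low HDM samples, at 0.592 to 2.74 CPM, were the 5 with a 7SL share above 25%, all male, and the other 2, at 6.99 and 52.6 CPM, were both female, so 7SL share and sex cannot be told apart within this group. Without HDM replicates 6 and 7 the log2 fold change was −1.91 (adjusted p = 0.0423), and with the 7SL share as a covariate it was 1.32 (adjusted p = 0.229), so that its direction depended on how these samples were treated.

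**Figure D2:**
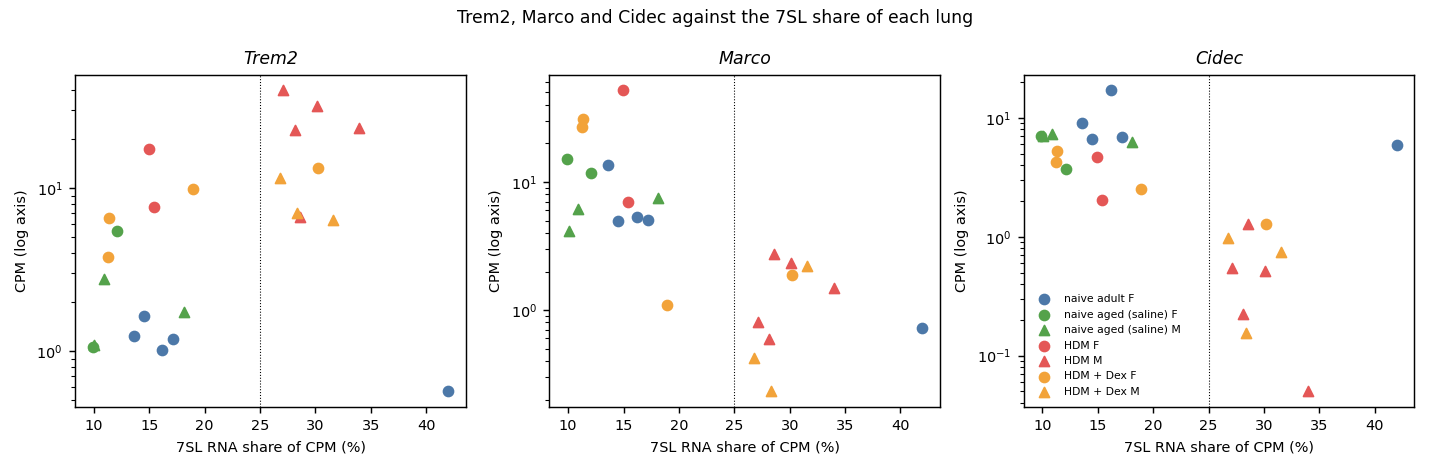
CPM of Trem2, Marco and Cidec (log axes) against the share of CPM taken by 7SL RNA in each of 24 lungs, coloured by group, with circles for females and triangles for males by expression and a dotted line at 25%; the Cidec value listed at 0.0001 CPM is drawn at 0.05. HDM samples of Marco and Cidec above 25% lay below those under 25%, whereas Trem2 was high on both sides after HDM.

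Fabp4, a cytosolic fatty acid carrier, stood at 10.9, 12.3, 8.03, 16.4 and 16.8 CPM in naïve aged lungs and at 5.96 to 32.2 CPM, median 9.76, after HDM. Its log2 fold change was 0.04 ± 0.36 (SE, adjusted p = 0.945), with a 95% interval from −0.71 to 0.79. Pparg, the nuclear receptor that induces Fabp4 and Cidec in fat, was the least variable member in naïve aged lungs, at 7.48, 8.61, 7.74, 7.94 and 7.52 CPM. It ran from 4.49 to 10.5 CPM, median 7.11, after HDM, and its log2 fold change was −0.11 ± 0.24 (SE, adjusted p = 0.751), with a 95% interval from −0.61 to 0.38. The HDM samples of both genes lay on either side of the naïve aged range.

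**Figure D3:**
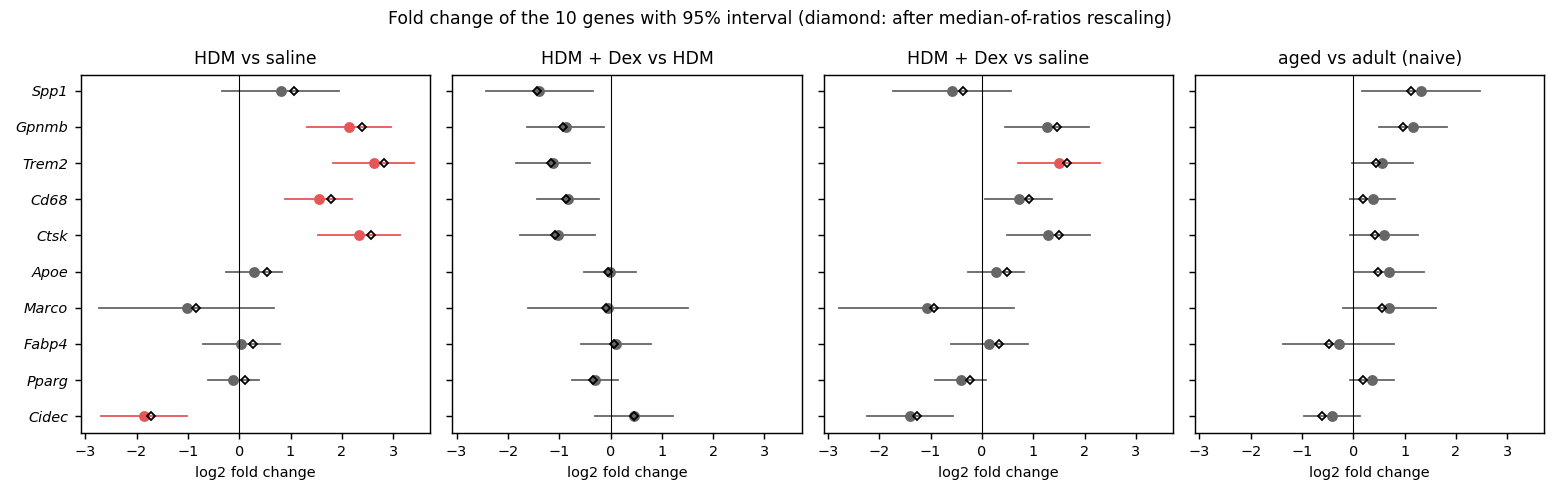
Log2 fold change of the 10 genes (dots) with 95% intervals from limma in 4 comparisons, with called genes in red and the value after median-of-ratios rescaling as an open diamond. Trem2, Ctsk, Gpnmb and Cd68 were called higher and Cidec lower in HDM against saline, and Trem2 was the gene called in HDM + Dex against saline.

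The genes around the members were read from lists of related function and of cell markers that left the 10 genes out. Some genes are in several lists, so the counts of different lists are not independent. Among those called, Atp6v0d2 is in the lysosomal, osteoclast and alveolar lists. Ms4a7 is in the interstitial and scar-associated lists, and Tyrobp in the general macrophage and TREM2 lists. The 14 genes of scar-associated macrophages included 9 that rose after HDM and none that fell, led by Mmp12 (macrophage elastase, log2 fold change 5.18, adjusted p = 8.88e-05) and Il1rn (1.94). Of 41 lysosomal enzymes and membrane proteins, 17 rose and 1 fell, with cathepsin S (Ctss, 1.96) and the proton pump subunit Atp6v0d2 (1.53) highest and Laptm4a lower (−0.64). After rescaling, 29 of the 41 rose and 1 fell.

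Of 31 genes of lipid uptake, storage and export, 8 rose and 1 fell. The scavenger receptor Msr1 (1.84) and the cholesterol hydroxylase Ch25h (1.45) rose most and the lipoprotein receptor Vldlr fell (−1.37). Of 9 TREM2 partners and signalling genes, Ms4a6d (1.55) and the adaptor Tyrobp (0.86) rose, and 6 rose after rescaling. None of 10 osteopontin receptors rose, and the integrin subunit Itga8 fell (−1.40), although 3 rose after rescaling. Of 12 genes of the osteoclast programme, in which Ctsk and Gpnmb also take part, 7 rose, led by the fusion proteins Ocstamp (2.15) and Dcstamp (2.05).

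Of 13 genes of the GM-CSF and TGF-β axis upstream of Pparg, 5 rose and 2 fell. The cytokine gene Csf2 (1.14) and the receptor gene Csf2rb2 (1.10) rose, and the coactivator Ppargc1a (−1.21) and the transcription factor Klf4 (−0.86) fell, beside the value of −0.11 for Pparg itself. Csf2rb2 shares most of its sequence with Csf2rb, so reads could be split between them.

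In each list of macrophage and monocyte markers some genes were called higher. Of 12 general macrophage markers 7 rose and none fell, with Fcer1g (1.10) and Fcgr1 (1.09) highest. Their summed level had a lower median after HDM, at 2347 CPM against 2939 CPM in naïve aged lungs, though HDM replicate 7 reached 6593 CPM. Of 17 alveolar macrophage markers 6 rose and Fabp1 fell (−1.40), with Chil3 (3.02) and F7 (2.04) highest. The others were not called, and the median log2 fold change of the 17 was 0.10, beside −0.23 over all genes tested. Chil3 has a close paralog, so its reads may be shared. Of 11 interstitial macrophage markers 4 rose, led by C1qb (1.82) and Ms4a7 (1.63), and Lyve1 fell (−0.73). Of 12 monocyte markers 3 rose, including S100a4 (1.20), and 2 fell, among them Ace (−0.60), whereas none fell after rescaling. The summed level of the alveolar list was 595 to 831 CPM in naïve aged and 857 to 4243 CPM in HDM lungs, that of the 12 interstitial genes listed 251 to 403 and 253 to 557 CPM, and that of the monocyte list 1205 to 1588 and 1499 to 5158 CPM. Chil3 is in both the alveolar and the monocyte list, with a mean of 134 CPM in naïve aged and 1394 CPM in HDM lungs. Without it the alveolar sum was 477 to 676 and 527 to 1510 CPM and the monocyte sum 1088 to 1487 and 1169 to 2426 CPM.

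Other cell types also moved. Of 10 fibroblast markers the collagen genes Col3a1 (1.80), Col1a1 (1.58) and Col1a2 rose and 5 fell, including Dcn (−1.38) and Pi16 (−1.34), but after rescaling 2 fell and Dcn was not called (adjusted p = 0.0543). Their sum was 1007 to 1299 CPM in naïve aged and 1237 to 1913 CPM in HDM lungs. Of 14 capillary endothelial markers 9 fell, led by Ednrb (−1.28) and Tmem100 (−1.08), and 5 after rescaling, with sums of 2661 to 3547 and 1654 to 2654 CPM. Of 6 neutrophil markers 3 fell, including S100a9 (−1.52) and Mmp8 (−1.46), and 2 after rescaling, when S100a9 was not called (adjusted p = 0.0653). The 8 neutrophil genes listed summed to 87.4 to 286 CPM in naïve aged and 45.5 to 246 CPM in HDM lungs. Of 5 eosinophil markers Alox15 (2.72) and Ccr3 (1.44) rose, with sums of 7.82 to 12.3 and 10.6 to 83.7 CPM, and none of 8 type 2 alveolar cell markers passed the test. All 8 heart muscle markers fell, with sums of 523 to 1035 and 19.6 to 416 CPM. The part of any of these cell types in the members' changes was not tested.

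**Figure D4:**
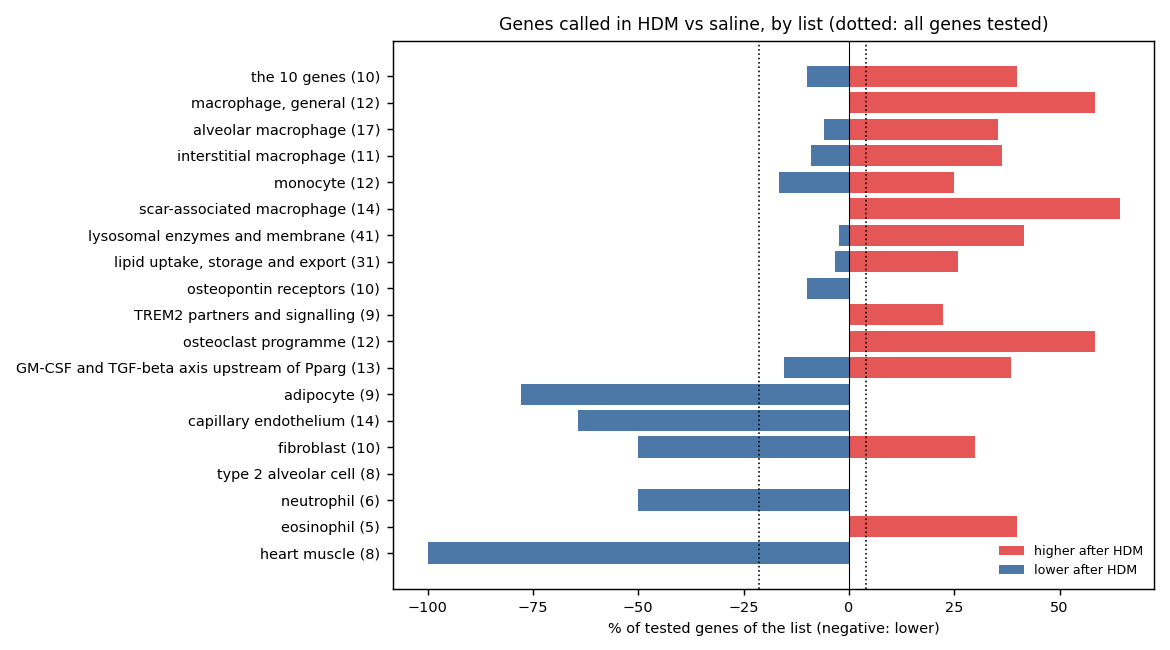
Share of each list's tested genes called higher (right) or lower (left) in HDM against saline, with the number tested in brackets and dotted lines at 4.04% higher and 21.2% lower for all genes tested. Among 14 scar-associated macrophage genes 9 and among 41 lysosomal genes 17 were called higher, and 7 of 9 adipocyte markers lower.

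To ask whether Dex altered these levels, the 7 HDM + Dex samples were compared with the 7 HDM samples. None of the 10 genes was called, beside 0.964% of all genes tested called in either direction and 0.214% called lower. Spp1, Gpnmb, Trem2, Cd68 and Ctsk had an unadjusted p under 0.05 by limma, each with a lower mean under Dex. That threshold is looser, so those shares are no background for it. The highest of these p-values, that of Gpnmb (0.0244), was the 1599th lowest of the 17744 genes tested. The median log2 fold change was −0.57 over the 10 genes and 0.03 over all genes tested. This comparison shares the HDM samples with that of HDM against saline, so a high HDM value raises the one and lowers the other.

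Trem2 ran from 3.77 to 13.3 CPM, median 7.02, in HDM + Dex lungs, against 6.63 to 40.3 CPM in HDM lungs. No HDM + Dex sample exceeded the highest HDM sample, 3 lay below the lowest, and the other 4 overlapped the HDM range. The log2 fold change was −1.12 ± 0.35 (SE, adjusted p = 0.121), with a 95% interval from −1.84 to −0.40.

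Ctsk ran from 22.4 to 71.4 CPM, median 27.3, under Dex, and its log2 fold change was −1.03 ± 0.35 (SE, adjusted p = 0.160). Cd68 ran from 10.4 to 39.3 CPM, median 24.0, with a log2 fold change of −0.83 ± 0.29 (SE, adjusted p = 0.171). All 7 HDM + Dex values of Ctsk lay within the HDM range, and 2 of those of Cd68 lay below it.

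Spp1 ran from 30.5 to 219 CPM, median 36.6, under Dex, with a log2 fold change of −1.39 ± 0.50 (SE, adjusted p = 0.191). Gpnmb ran from 24.2 to 85.7 CPM, median 45.2, with a log2 fold change of −0.88 ± 0.36 (SE, adjusted p = 0.270). For Spp1 4 HDM + Dex samples and for Gpnmb 1 lay below every HDM sample.

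Which members were called depended on single HDM samples, while the fold changes of Spp1, Gpnmb, Trem2, Cd68 and Ctsk were below 0 in each of the 33 alternatives run. HDM replicate 2 had the lowest Spp1, Trem2, Cd68, Ctsk, Fabp4 and Pparg of its group, and without it Trem2 (log2 fold change −1.34, adjusted p = 0.0310), Cd68 (−1.04, 0.0321), Ctsk (−1.29, 0.0324) and Spp1 (−1.72, 0.0481) passed the test. Without HDM replicate 6 Trem2 passed (−1.31, adjusted p = 0.0401). Among the samples with a 7SL share below 25%, just 2 HDM and 3 HDM + Dex lungs, the adjusted p of Trem2 was 0.658. Its mean in these lungs was 12.5 CPM in HDM and 6.72 CPM in HDM + Dex.

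The other 5 genes did not pass the test under Dex either. Apoe ran from 294 to 1211 CPM (log2 fold change −0.01, adjusted p = 0.989), Marco from 0.232 to 30.9 CPM (−0.05, 0.987), Fabp4 from 6.40 to 24.8 CPM (0.11, 0.930), Pparg from 2.88 to 11.0 CPM (−0.30, 0.608) and Cidec from 0.154 to 5.25 CPM (0.46, 0.655). The 95% interval of Marco reached from −1.60 to 1.50, so that changes within those limits either way were not excluded, whereas that of Apoe reached from −0.52 to 0.49. Marco was 0.232 to 2.23 CPM in the 4 HDM + Dex samples with a 7SL share above 25% and 1.09 to 30.9 CPM in the other 3. Of these 4 samples 3 were male and 1 female by expression, and the other 3 were all female.

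In the lists, 2 genes that act beside the members fell under Dex: Il1rn, the interleukin-1 receptor antagonist (−1.60, adjusted p = 0.0292), and Dcstamp, the fusion protein of osteoclasts and giant cells (−1.40, adjusted p = 0.0292). They were 1 of 14 scar-associated genes and 1 of 12 osteoclast genes. None of 41 lysosomal genes and none of 31 lipid genes was called, although 6 and 2 fell after rescaling, beside 0.862% of all genes called lower. The lowest p among the lysosomal genes was that of Ctsz (−0.80, adjusted p = 0.0736). No general, alveolar or interstitial macrophage marker and no monocyte marker was called. Among fibroblast markers Col3a1 (−0.90), Col1a1 (−0.85) and Col1a2 fell.

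Against saline, the HDM + Dex samples kept a higher level of Trem2 as the sole member called, beside 0.445% of all genes called higher and 1.89% called in all. Of the 7 HDM + Dex samples 6 lay above every naïve aged sample, and the log2 fold change was 1.50 ± 0.38 (SE, adjusted p = 0.0444). That call was lost under median-of-ratios rescaling (1.65, adjusted p = 0.0603) and in 17 of 31 alternatives in all. Under rescaling 0.502% of all genes were called higher and 0.456% lower, against 0.445% and 1.44% without it.

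Ctsk was the member whose HDM + Dex and naïve aged samples did not overlap, which held for 0.524% of all genes tested in that direction. Its log2 fold change was 1.30 ± 0.39 (SE, adjusted p = 0.0788). Gpnmb stood at 1.27 ± 0.40 (SE, adjusted p = 0.0980), Cidec at −1.40 ± 0.40 (SE, adjusted p = 0.0677) and Cd68 at 0.72 ± 0.32 (SE, adjusted p = 0.200). With sex as a term in the fit Gpnmb, Ctsk and Cidec passed as well, at adjusted p = 0.0484, 0.0394 and 0.00940. Spp1 stood at −0.58 (adjusted p = 0.526), Apoe at 0.28 (0.529), Marco at −1.08 (0.426), Fabp4 at 0.15 (0.826) and Pparg at −0.41 (0.303).

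Beside the members, Mmp12 (3.51, adjusted p = 0.00903), Chil3 (2.40, adjusted p = 0.0111), F7 (1.49), Ms4a7 (1.28) and Msr1 (1.21) were called higher in HDM + Dex than in saline. No lysosomal gene was called in either direction, and Ctss had the lowest p (1.00, adjusted p = 0.101). The adipocyte genes Cfd (−1.83) and Plin1 (−1.35) were called lower, and neither was after rescaling (adjusted p = 0.0603 and 0.0837).

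To describe naïve lungs by age, the 5 aged and 5 adult mice were compared. All 5 adult mice were female by expression whereas 3 of the 5 aged mice were male, so age and sex cannot be told apart in part of this comparison. None of the 10 genes was called by limma, beside 0.654% of all genes tested. Spp1, Gpnmb and Apoe had an unadjusted p under 0.05, a looser threshold for which that share is no background. The highest of the 3, that of Apoe (0.0434), was the 1816th lowest p of the 17744 genes tested. The median log2 fold change was 0.58 over the 10 genes and 0.19 over all genes tested. Of all genes 0.592% were called higher and 0.062% lower, or 0.58% and 0.451% after rescaling.

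Gpnmb had the lowest p of the 10. It stood at 3.96, 9.54, 8.40, 13.3 and 7.31 CPM in adult lungs and at 13.6, 14.1, 15.4, 44.0 and 18.9 CPM in aged lungs. The groups did not overlap, which held for 2.91% of all genes in that direction, but the margin between adult replicate 4 and aged replicate 1 was narrow. This gave a log2 fold change of 1.16 ± 0.31 (SE, adjusted p = 0.130).

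Spp1 stood at 6.46, 31.7, 27.5, 181 and 37.1 CPM in adult lungs, and all aged values lay between the highest and the next adult value. Its log2 fold change was 1.32 ± 0.55 (SE, adjusted p = 0.371), and it passed the test without adult replicate 4 (1.92, adjusted p = 0.0314). Apoe stood at 120, 398, 393, 362 and 403 CPM in adult lungs, with a log2 fold change of 0.70 ± 0.32 (SE, adjusted p = 0.424). Adult replicate 1, with a 7SL share of 42.0%, had the lowest value of each of the 10 genes in its group. After median-of-ratios rescaling it was no longer the lowest for Cd68, Fabp4, Pparg and Cidec.

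Trem2 ranged from 0.565 to 1.64 CPM in adult lungs, Cd68 from 5.89 to 12.1 CPM, Ctsk from 2.58 to 11.5 CPM, Marco from 0.727 to 13.7 CPM and Pparg from 3.96 to 9.09 CPM. Their log2 fold changes with age lay between 0.37 and 0.70, and each adult range overlapped that of the aged mice. Fabp4 stood at 6.46, 10.6, 8.67, 12.9 and 101 CPM and Cidec at 5.89, 6.97, 6.69, 9.14 and 17.3 CPM in adult lungs, with log2 fold changes of −0.28 (adjusted p = 0.808) and −0.42 (adjusted p = 0.542). The high value of both genes was that of adult replicate 5. In that lung the adipocyte gene Adipoq was at 18.6 CPM against 0.819 to 2.57 CPM in the other adult lungs, and the 14 adipocyte genes listed summed to 385 CPM, the highest of the group, whose median was 116 CPM. No macrophage, lysosomal or lipid list gene was called with age, and in the osteoclast list Mmp9 rose (1.44, adjusted p = 0.0470, or 0.0786 after rescaling). Of 6 neutrophil markers 5 rose with age, led by S100a8 (2.19) and Mmp8 (2.16); their part in the value of Mmp9 was not tested.

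Finally, the members were compared for how they varied between mice of the same group, as Pearson's r of log2(CPM + 1) over 24 lungs with group means removed. These values are a description, since all genes of a lung share its library, depth and 7SL share. Among the 45 pairs, r ran from −0.42 to 0.82 with a median of 0.45. The highest was that of Trem2 with Ctsk (0.82), followed by Marco with Cidec (0.79), Cd68 with Pparg (0.77) and Spp1 with Ctsk (0.75). Gpnmb followed Trem2 (0.73) and Ctsk (0.71).

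All 10 pairs among Trem2, Ctsk, Gpnmb, Cd68 and Spp1 had an r of at least 0.41, and the 3 pairs among Marco, Cidec and Pparg one of at least 0.61. The 6 pairs that joined Trem2, Ctsk or Gpnmb to Marco or Cidec were all below 0, from −0.42 to −0.07. Cd68 and Spp1 differed from these, with an r of 0.46 and 0.11 to Marco and of 0.45 and 0.02 to Cidec. These groupings were made after the values were seen.

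**Figure D5:**
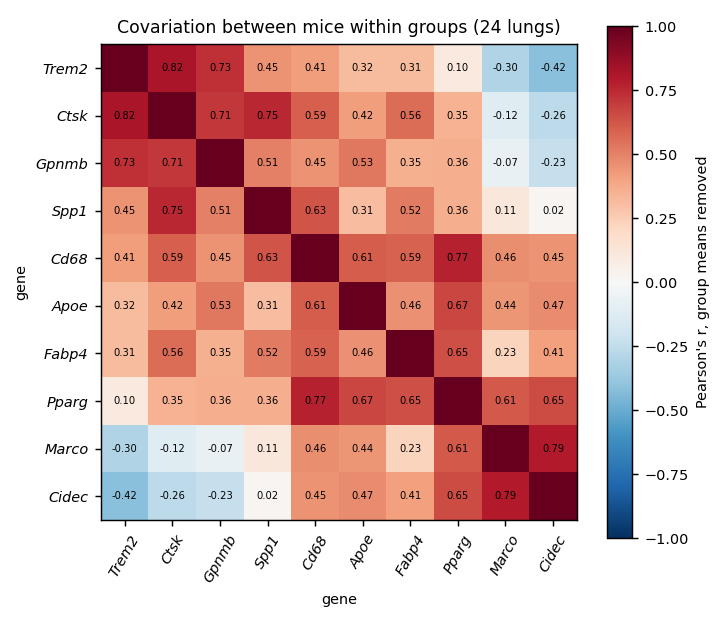
Pearson's r between the 10 genes over 24 lungs after removing group means, in colour from −1 (blue) to 1 (red). Trem2, Ctsk and Gpnmb form a block of high values at the upper left (0.71 to 0.82), Marco and Cidec one at the lower right (0.79), and the corners between them are negative (−0.42 to −0.07).

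By the same measure over all genes tested, the closest to Trem2 were Fam20c (0.88) and the GM-CSF receptor subunit Csf2ra (0.87), and the closest to Ctsk were the integrin subunit Itgax (0.91) and the protease Mmp19 (0.88). Spp1 varied most like the lysosomal protease gene Ctsl (0.85) and the chemokine gene Ccl9 (0.82). Cd68 varied most like Cstb, a cathepsin inhibitor (0.94), and Sh3bgrl3 (0.93). For Gpnmb they were Ighv7-3 (0.80) and the phagocytic bridging protein gene Mfge8 (0.80).

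Apoe varied most like Rnf115 (0.87) and Cst3 (0.87), another inhibitor of cathepsins. Marco varied most like Rassf4 (0.90) and the alveolar macrophage marker Krt79 (0.89), which had a median of 11.1 CPM in naïve aged, 4.36 CPM in HDM and 5.32 CPM in HDM + Dex lungs. Fabp4 stood closest to Slpi (0.81) and H19 (0.77), Pparg to Serpinf1 (0.87) and Gm15975 (0.87), and Cidec to Cadm3 (0.90) and G6pdx (0.87).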

How the data were processed

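Left-lobe lung RNA of 24 mice was analysed in the 4 groups of the sample labels. Per the paper's methods, libraries were stranded mRNA, reads were paired-end and the pipeline was Picard-STAR-limma; the submitters' processing notes also name FastQC, DESeq2 and mm9. The authors deposited a table of CPM to whose values 0.0001 had been added throughout. Its coordinates were those of GRCm38: 23276 of 23891 symbols were found in the GENCODE annotation and 23142 had the same start. Which genes were kept, and how strand was handled, is not given in the sources used here. Other tables named in the methods were not analysed here.

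Depth was estimated from the spacing of low CPM values, and 3 reads were taken as the floor, which covers counting error only. Because just 80.4% to 85.1% of low values fell on whole reads (within 0.05), count tests were not run. limma 3.58.1 in R 4.3.3 was fitted to log2(CPM + 1) of the 17744 genes averaging 1 CPM or more, with eBayes trend and p-values adjusted by Benjamini-Hochberg over all of them; calls had an adjusted p under 0.05, two-sided. Fold changes are on this log2 scale, which understates low genes. One fit of the 19 aged samples gave the HDM and Dex comparisons and another of the 10 naïve samples gave that of age. The script was tested on simulated data. Whether samples of a group came from separate experiments was not given, and p-values measure the spread between these samples.

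The 10 genes and the gene lists were chosen with earlier results of these data known. Named genes were the 10, in each list and comparison up to 2 called genes with the largest change each way or the gene with the lowest p, and the 2 genes most like each of the 10; 1 gene of the lists is not reported here. Same-numbered samples correlated at r from −0.24 to 0.41 with medians from −0.10 to 0.01, so numbers were not used as pairs. Promoter windows were from RefSeq (GRCm38.p6); 9 of 10 genes matched. Python 3.11.15 was used for the rest. Alternatives were another pseudocount (0.1 or 5), another filter (none or 5 CPM), rescaling by the median of ratios with and without the 7SL genes, fits with other groups or 2 groups, no trend, a sex term, a replicate block and each sample left out. Use of the 7SL share, and leaving out HDM replicates 6 and 7 or, after rescaling, naïve adult replicate 1, were added after seeing the data.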

Additional observations from a re-analysis of the deposited data

Results flagged for a closer look

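Of the 40 groups of values tested (10 genes in 4 groups), 9 held a sample that stood apart from the rest by Dixon's ratio at the 95% level. For independent groups of normally distributed values chance would give about 1 in 20, or 2 groups. Here the values were untransformed CPM and the 10 genes came from the same lungs, so 9 cannot be read as an excess over 2. For Spp1 these were naïve adult replicate 4 at 181 CPM (others 6.46 to 37.1 CPM), HDM replicate 5 at 874 CPM (others 37.2 to 293 CPM) and HDM + Dex replicate 6 at 219 CPM (others 30.5 to 89.1 CPM). HDM + Dex replicate 6 also had the highest Ctsk, at 71.4 CPM (others 22.4 to 37.5 CPM). Gpnmb was at 44.0 CPM in naïve aged replicate 4 (others 13.6 to 18.9 CPM). Apoe was low in naïve adult replicate 1, at 120 CPM (others 362 to 403 CPM). Marco was at 52.6 CPM in HDM replicate 7 (others 0.592 to 6.99 CPM). In naïve adult replicate 5 Fabp4 was at 101 CPM (others 6.46 to 12.9 CPM) and Cidec at 17.3 CPM (others 5.89 to 9.14 CPM).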

How the results depend on the processing

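Trem2, Cd68 and Ctsk kept their rise after HDM in all 32 alternatives (highest adjusted p 0.0224, 0.00678 and 0.0256). Over all genes and comparisons, 1141 recomputed fold changes of members kept their side of the threshold, 25 passed it and 20 fell short of it, and none of the called values changed sign. The low depth of HDM replicate 3 limits Cidec.

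HDM against saline called 4482 genes and 5 members, and 2954 to 5338 genes and 5 to 5 members when single samples were left out (fewest without naïve aged replicate 3). It called 1571 genes with the 7SL share as a covariate, 1072 genes and 3 members among samples below 25%, and 6830 genes without HDM replicates 6 and 7.

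HDM + Dex against HDM called 171 genes and no member, and 2 to 544 genes and 0 to 4 members when single samples were left out (2 without HDM replicate 5, 544 without HDM replicate 2). It called 83 genes with no filter, 506 after rescaling and 444 after rescaling without the 7SL genes. With just the 2 compared groups in the fit 1 gene was called, and with a sex term 293. The 7SL share as a covariate gave 563 genes (1 member, Cd68), and 11 were called below and 1 above a share of 25%. Without HDM replicates 6 and 7 it called 720 genes (2 members, Trem2 and Ctsk).

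HDM + Dex against saline called 335 genes and 1 member, and 66 to 772 genes and 0 to 2 members when single samples were left out (66 without naïve aged replicate 3, 772 without HDM + Dex replicate 7). It called 213 genes with no filter, 170 and 180 after rescaling with and without the 7SL genes, and 221 without the trend, each with 0 members. With the 7SL share as a covariate 34 genes were called, and 28 below 25%, again with 0 members. With just the 2 compared groups in the fit it called 519 genes (4 members), and with a sex term 1929 (4 members).

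Aged against adult called 116 genes, 74 to 154 and 0 to 1 members when single samples were left out (Spp1 without adult replicate 4). It called 67 genes with a filter at 5 CPM, 183 after rescaling and 65 with all groups in the fit.

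Same-numbered samples share only a number. With the replicate number as a block, HDM + Dex against HDM called 8 genes, HDM + Dex against saline 898 genes and 3 members, and aged against adult 1 member (Gpnmb, 1.16, adjusted p = 0.0251); Marco passed in HDM against saline (−1.69, adjusted p = 0.0357). Of the 5 pairs in HDM against saline, 1 correlated best with its own number, and none did in the other comparisons.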
